A study of Mus musculus with 14 samples.

Results

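Interferon-stimulated genes are the genes that cells switch on when a type I interferon binds its receptor, and 39 of them were followed here across mouse embryonic fibroblasts with and without the lysine acetyltransferase Tip60. The 39 were chosen by symbol as textbook members of the response, with no threshold on their values but with earlier results of these data known. All 39 were found among the 26270 gene identifiers of the count tables, each with at least 1 count. RNA was sequenced from 14 cultures in 4 groups: Tip60+/+ control cells at day 3 (3 libraries), Tip60-/- knockout (KO) cells at day 3 (3 libraries), control cells at day 5 (4 libraries) and KO cells at day 5 (4 libraries). Fibroblasts were taken from embryos at E13.5 and grown in 3% oxygen. Deletion of Tip60, whose gene is Kat5, was induced with 250 nM 4-hydroxytamoxifen (4-OHT), a drug that is widely used to activate a Cre recombinase fused to an oestrogen receptor. The labels give the same treatment text for all 14 samples, are silent on 4-OHT in the controls and do not name the Cre driver.

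The type I interferon pathway starts when sensors of foreign or misplaced nucleic acid, such as the RNA helicases RIG-I (Ddx58) and MDA5 (Ifih1), induce interferon genes. Secreted interferon binds a receptor whose kinases activate a transcription factor complex that holds Stat2 and Irf9 and binds a DNA element called the interferon-stimulated response element (ISRE). Interferon gamma acts mainly through a different element, the gamma-activated site (GAS). The induced genes include antiviral effectors, enzymes that attach the ubiquitin-like protein Isg15, guanylate-binding proteins, parts of the machinery that prepares peptides for MHC class I, and the sensors and transcription factors of the pathway itself. Cultured fibroblasts are a classic responder to interferon and keep a low level of many of these transcripts without infection.

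Some promoters of these genes hold letters that match the DNA elements of the pathway, and others do not. Of the 39 genes, 30 had an entry, with 34 promoters in all, in a RefSeq table for the mouse build GRCm38.p6, and the 250 bases before each start were searched on both strands. The ISRE-like motif GAAANNGAA (or its reverse complement) was present in 12 of the 34 promoters, 35.3%, against 7.13% of the 32851 promoters of all genes. The GAS motif TTCNNNGAA, which reads alike on both strands, was present in 7 of the 34, 20.6%, against 7.02% of all promoters, and the 2 motifs can overlap each other in a promoter such as that of Bst2. A match is only a run of letters, and no binding was measured. The sequences below are 90 bases long, 5′ to 3′ on the strand of the gene, with the motif in capitals. They were chosen to put promoters of genes that were higher in KO cells beside promoters of genes that were not. Ifit1 (chr19:34640765-34640854, plus strand), Ifit3 (chr19:34583387-34583476, plus strand) and Gbp2 (chr3:142620565-142620654, plus strand) were higher in KO cells at day 3 and carry the ISRE-like motif in reverse.
Ifit1: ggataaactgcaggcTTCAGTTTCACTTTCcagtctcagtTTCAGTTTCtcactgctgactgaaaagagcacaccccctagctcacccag
Ifit3: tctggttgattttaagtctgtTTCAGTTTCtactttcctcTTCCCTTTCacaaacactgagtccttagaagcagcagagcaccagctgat
Gbp2: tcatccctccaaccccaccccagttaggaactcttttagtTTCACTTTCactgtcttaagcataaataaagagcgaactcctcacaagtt
Isg15 (chr4:156200835-156200924, minus strand) and Oas3 (chr5:120777679-120777768, minus strand) carry the motif in forward orientation and were not called at either day.
Isg15: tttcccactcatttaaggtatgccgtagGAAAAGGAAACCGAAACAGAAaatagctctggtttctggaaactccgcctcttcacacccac
Oas3: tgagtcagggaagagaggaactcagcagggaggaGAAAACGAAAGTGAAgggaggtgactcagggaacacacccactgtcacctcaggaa
Irf1 (chr11:53769884-53769973, plus strand) and Psmb8 (chr17:34198058-34198147, plus strand) were higher in KO cells at both days and carry the GAS motif and no ISRE-like match.
Irf1: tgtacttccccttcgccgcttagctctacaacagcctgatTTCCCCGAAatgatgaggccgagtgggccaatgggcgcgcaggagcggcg
Psmb8: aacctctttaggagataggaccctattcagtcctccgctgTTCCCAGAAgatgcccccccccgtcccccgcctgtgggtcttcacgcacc
The ISRE-like motif was found for 6 of the 17 genes with an entry that were called higher at day 3 and for 6 of the 13 that were not called. At day 5 it was found for 1 of 7 genes called higher and 11 of 22 not called. The GAS motif was found for 3 of the 17 genes called higher at day 3 and 4 of the 13 not called. At day 5 it was found for 2 of 7 called higher, 4 of 22 not called and the 1 called lower. These counts are a description and were not tested.

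Total counts per library ran from 2187168 in KO day 3 replicate 3 to 39203154 in KO day 3 replicate 2. Kat5 was at 31.9 ± 0.41 CPM (SD, n = 3) in control and 19.9 ± 1.41 CPM (SD, n = 3) in KO cells at day 3, and at 30.9 ± 0.923 CPM (SD, n = 4) and 18.4 ± 1.14 CPM (SD, n = 4) at day 5, with no overlap between genotypes. CPM is the counts-per-million value after scaling of library totals, and the labels do not say which exons are deleted. Fibroblast markers were abundant, with Col1a1 at a group mean of 6770 CPM or more in every group. The 10 fibroblast markers summed to 17260 to 21410 CPM in control and 29680 to 32180 CPM in KO libraries at day 3, where 6 were called higher. At day 5 they summed to 22430 to 27390 CPM and 18140 to 22560 CPM, and 4 were called higher and 3 lower. The same rule called 24.6% of all tested genes higher at day 3, and 26.3% higher and 26.2% lower at day 5. Of 15 markers of macrophages and other leukocytes, Siglech had no count in any library, and the list summed to 119 to 172 CPM in control and 78.9 to 110.8 CPM in KO libraries at day 3 and to 119 to 157 CPM and 98.8 to 168 CPM at day 5. At day 3, 7 of the 13 tested leukocyte markers were called lower in KO cells by edgeR and 0 higher, also at an unadjusted p below 0.05. The 7 were 53.8% of the list, against 26.2% of all tested genes called lower. At day 5, 1 was called higher (7.69%) and 3 lower (23.1%), against 26.3% and 26.2% of all tested genes. The part of either list in the results on the 39 genes was not tested. Counts in bulk RNA cannot tell fewer cells of a type from less RNA per cell. By their identifiers, control embryos came from litters 218 and 219 and KO embryos from litters 136, 153 and 159, so no litter held both genotypes, and 5 of 7 KO but 1 of 7 control libraries were male. Genotype and litter therefore cannot be told apart.

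Within every group the interferon-stimulated genes moved together from library to library. In the day 3 controls, replicate 2 held the highest value for 36 of the 39 genes and replicate 1 the lowest for 33. These libraries carry 1 embryo label, yet replicate 2 exceeded replicate 1 for 37 of 39 genes, with a median ratio of 2.06, while the median ratio over all tested genes was 1.01. Among the KO libraries at day 3, replicate 2 (litter 136, female) was lowest for 37 genes and replicate 4 (litter 153, male) highest for 35. Replicate 3 of this group was also male, and all day 3 control libraries were female. Control day 5 replicate 4, the only control of litter 219 and the only male control, was lowest of its group for 37 genes. In the KO libraries at day 5, replicate 2 (litter 136, female) was highest for 38 genes and replicate 4 (litter 153, male) lowest for 28. The litter that was lowest at day 3 was thus highest at day 5.

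**Figure D1:**
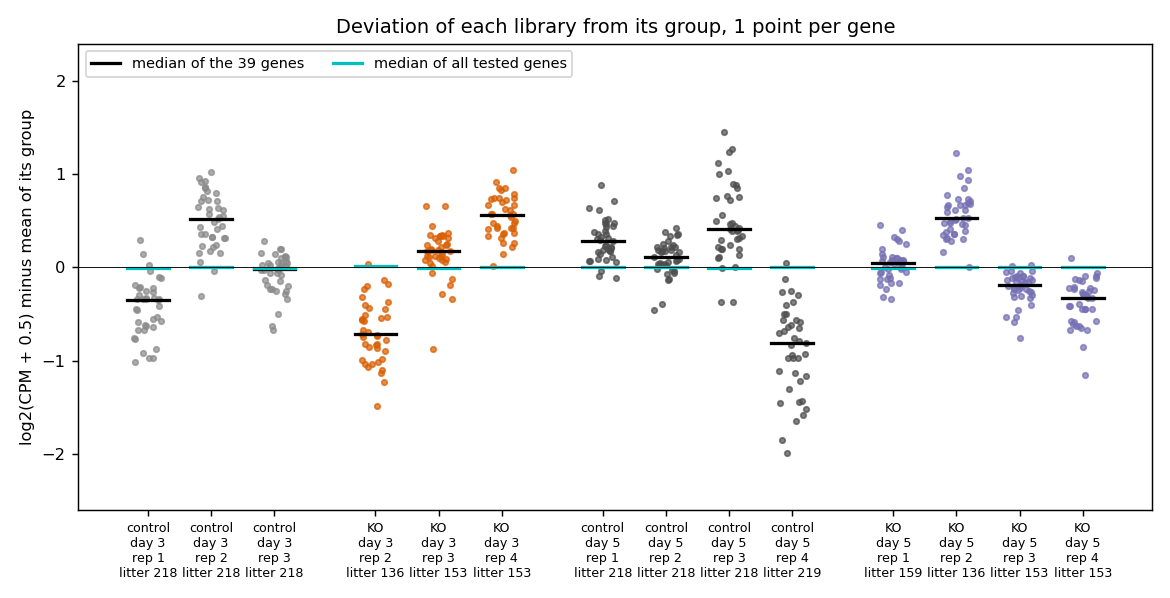
Each point is 1 of the 39 genes, placed at its log2(CPM + 0.5) in a library minus the mean of that library's group, with libraries along the horizontal axis labelled by replicate and by the litter read from the embryo identifier. Black lines mark the median of the 39 genes, from -0.81 in control day 5 replicate 4 to 0.56 in KO day 3 replicate 4, and light lines mark the median of all tested genes, which stays near 0 in every library.

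Followed within an embryo, the 39 genes went in opposite directions in different KO embryos between the days. In the KO embryo of litter 136, all 39 genes were higher at day 5 than at day 3, with a median difference of 0.70 in log2(CPM + 0.5). In the KO embryos of litter 153, 36 of 39 genes were lower at day 5 in replicate 3 (median -0.94) and 39 of 39 in replicate 4 (median -1.32). Over all tested genes, the median difference lay between 0.00346 and 0.0253 in these pairs. In control cells, the embryo behind replicate 3 had 31 genes higher at day 5 (median 0.42), and the embryo sampled by both replicate 1 and replicate 2 at day 3 had 38 genes higher at day 5 when measured from replicate 1 and 14 when measured from replicate 2. The 2 cultures of that embryo thus gave opposite answers.

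Against this spread, more interferon-stimulated genes were called higher in KO than in control cells at day 3 than at day 5. A gene was called when its adjusted p, over all 14327 genes tested with edgeR's quasi-likelihood test, was below 0.05. At day 3, 20 of the 39 genes were called higher and 0 lower (23 and 1 at an unadjusted p below 0.05, and 23 and 0 in DESeq2), while the same rule called 24.6% of all tested genes higher and 26.2% lower. Their median log2 fold change was 1.09, against -0.0036 over all tested genes, and 33 of 39 were above 0. For 17 of the 39 the KO libraries lay entirely above the control libraries, a pattern that 28.2% of all tested genes showed. At day 5, 7 genes were called higher and 1 (Ifit2) lower, where the rule called 26.3% of all tested genes higher and 26.2% lower, so the share of these genes called higher was below the share of all genes. The median log2 fold change was 0.49 against 0.0211 over all tested genes, 31 of 39 values were above 0, and the libraries were separated upwards for 7 genes (23.5% of all tested genes) and downwards for 1 (23.8%).

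**Figure D2:**
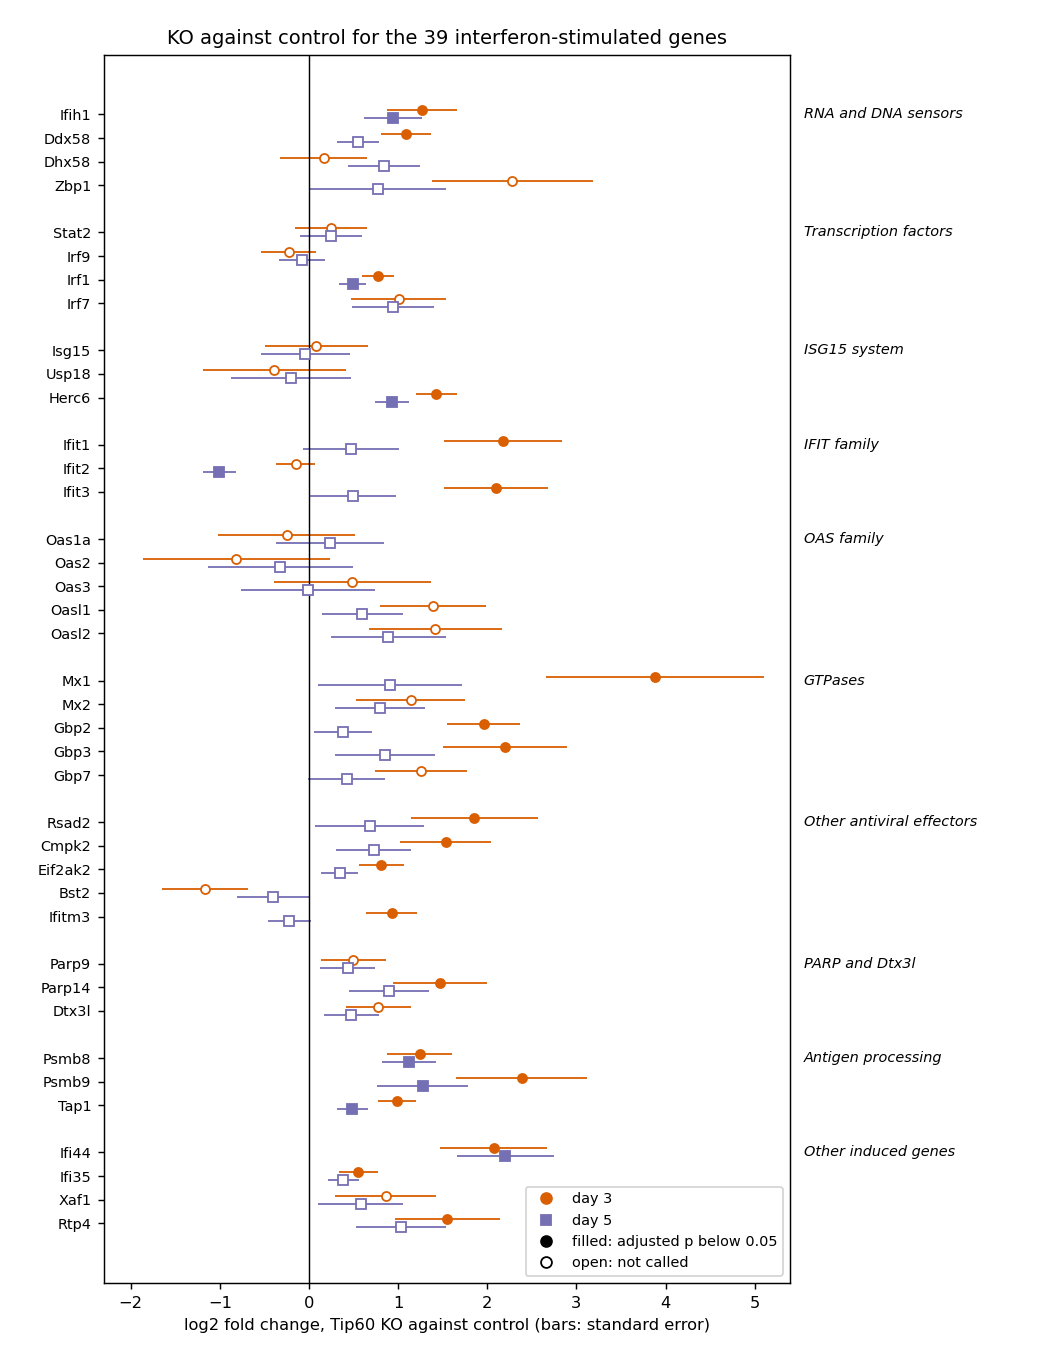
Log2 fold change of KO against control cells for each of the 39 genes, grouped by role, with bars for the standard error; circles are day 3, squares are day 5, and filled symbols were called. Most day 3 values lie to the right of 0, with Mx1 farthest at 3.88, and the filled squares of day 5 are Ifih1, Irf1, Herc6, Psmb8, Psmb9, Tap1, Ifi44 and, to the left of 0, Ifit2.

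The day 3 count rested heavily on single libraries and on how the control embryos were counted. Without KO day 3 replicate 4, the library with the highest values, only 5 genes were called higher: Ddx58, Gbp2, Herc6, Irf1 and Tap1. That fit called 20.8% of all tested genes higher, so the share of the 39 genes was then below the share of all genes. Without control day 3 replicate 1, the library with the lowest values among controls, 10 genes were called higher: Ddx58, Gbp2, Herc6, Ifi44, Ifit3, Irf1, Mx1, Psmb8, Psmb9 and Tap1. The share of all tested genes called higher was 21.6% in that fit, near that of the 39. Without control day 3 replicate 3 the count was 13, where 20.5% of all tested genes were called higher. With control day 3 replicates 1 and 2, which share an embryo label, summed to 1 sample, so that 2 control embryos remained, 15 were called higher, and Cmpk2, Ifi35, Parp14, Rsad2 and Rtp4 lost their calls. In that fit 21.7% of all tested genes were called higher. Leaving out KO day 3 replicate 2 instead raised the count to 25, where 22% of all tested genes were called higher. At day 5 the count of genes called higher fell to 4 without KO day 5 replicate 1, without KO day 5 replicate 2 or without control day 5 replicate 2, each time Herc6, Irf1, Psmb8 and Ifi44. Those fits called 24.6%, 24.1% and 22.3% of all tested genes higher, in that order. Gbp2 and Herc6 at day 3 and Ifi44 and Ifit2 at day 5 kept their calls in all 24 alternatives tried, whereas at day 3 Rtp4 lost its call in 16, Rsad2 in 13, Ifi35 in 12 and Parp14 in 10 of them. At day 5 the calls of Tap1 and Ifih1 were each lost in 7 of 24, and that of Psmb9 in 15 of the 23 that gave a value, DESeq2 and sex as a covariate included. The median log2 fold change of the 39 genes moved as well: at day 3 it was 0.698 without KO day 3 replicate 4, and at day 5 it was 0.264 without control day 5 replicate 4 and 0.302 without KO day 5 replicate 2.

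**Figure D3:**
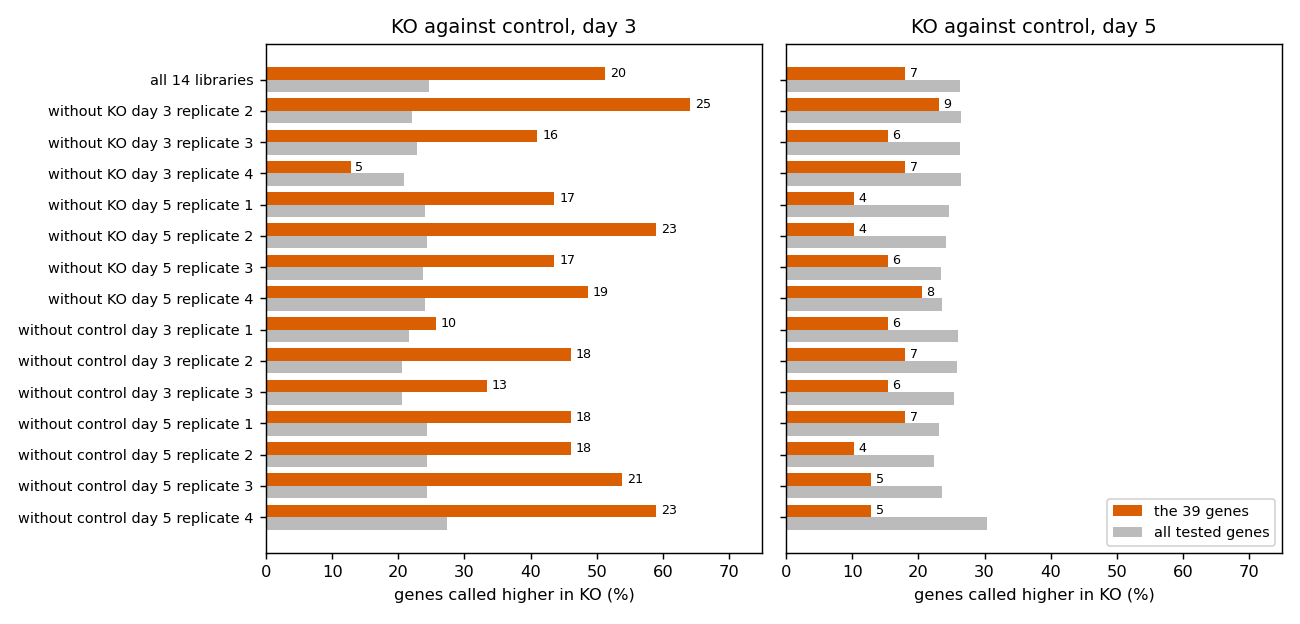
Bars give the percentage of the 39 genes (coloured, with the number of genes beside the bar) and of all tested genes (grey) called higher in KO cells when each library on the vertical axis is left out, at day 3 (left) and day 5 (right). At day 3 the number runs from 5 without KO day 3 replicate 4 to 25 without KO day 3 replicate 2, and at day 5 the coloured bar is shorter than the grey bar in every row.

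Among the 4 nucleic acid sensors, the 2 RNA helicases that trigger interferon induction were called higher in KO cells at day 3, and only Ifih1 at day 5. These were 50% and 25% of the class, against 24.6% and 26.3% of all tested genes. Ifih1 encodes MDA5, which detects long double-stranded RNA. Its level was 9.59, 21.9 and 16.2 CPM in control and 25.8, 38.98 and 52.6 CPM in KO libraries at day 3, and 16.7, 15.1, 21.8 and 8.29 CPM in control and 28.6, 41.3, 22.9 and 24.1 CPM in KO libraries at day 5. The groups did not overlap on either day, and the log2 fold changes were 1.26 ± 0.39 (SE, adjusted p = 0.018) and 0.94 ± 0.33 (adjusted p = 0.03). Ddx58 (RIG-I), which recognises RNA with a triphosphate end, read 37.7, 59.03 and 47.7 CPM in control against 68.3, 108 and 133 CPM in KO libraries at day 3, with no overlap, a change of 1.09 ± 0.28 (adjusted p = 0.007). At day 5 its values of 57.9, 58.4, 63.9 and 41.4 CPM in control and 81.2, 112, 67.4 and 62.4 CPM in KO libraries overlapped slightly and were not called (0.55 ± 0.24, adjusted p = 0.071). Zbp1, a sensor of Z-form nucleic acid linked to necroptosis, was more variable: KO values of 3.17, 8.92 and 10.8 CPM lay above control values of 1.60, 1.95 and 0.840 CPM at day 3, yet the change of 2.28 ± 0.91 was not called (adjusted p = 0.052), although 9 of 24 alternatives, DESeq2 and sex as a covariate among them, called it. Dhx58 (LGP2), a regulator of the other helicases, had overlapping groups on both days, with changes of 0.16 ± 0.49 and 0.84 ± 0.41.

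Of the 4 transcription factors, only Irf1 passed the test, and Stat2, Irf7 and Irf9 did not. The share called higher, 25% on each day, was near the 24.6% at day 3 and 26.3% at day 5 of all tested genes. Irf1, a factor that interferon gamma induces, was at 15.3, 20.3 and 18.6 CPM in control and 30.6, 24.4 and 35.9 CPM in KO libraries at day 3. It was at 22.3, 20.4, 23.9 and 17.4 CPM and 30.2, 37.1, 23.5 and 26.5 CPM at day 5. KO libraries were above all controls at day 3, and at day 5 only KO replicate 3 fell within the control range, by a small margin. The changes were 0.78 ± 0.18 (adjusted p = 0.0025) and 0.49 ± 0.15 (adjusted p = 0.013). Stat2 ranged over 53.8, 118 and 83.9 CPM in control and 66.9, 113 and 128 CPM in KO libraries at day 3, and 70.7, 65.5, 76.9 and 28.4 CPM and 74.6, 99.7, 58.7 and 52.7 CPM at day 5. The groups overlapped on both days, with changes of 0.25 ± 0.40 and 0.25 ± 0.34 (adjusted p = 0.64 and 0.57). Irf9 gave -0.23 ± 0.31 and -0.08 ± 0.26, the smallest changes in this class. Irf7, which amplifies the production of interferon alpha, had means of 12.3 ± 5.07 CPM (SD, n = 3) and 25.9 ± 11.98 CPM (SD, n = 3) at day 3 and 8.29 ± 3.62 CPM (SD, n = 4) and 15.99 ± 6.75 CPM (SD, n = 4) at day 5. Although the KO mean was about as far above control as for called genes (1.00 ± 0.54 and 0.94 ± 0.46), Irf7 was not called (adjusted p = 0.14 and 0.1). Its libraries overlapped on both days, as did those of some called genes, such as Ifitm3 and Parp14 at day 3.

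The 3 genes of Isg15 conjugation separated into 1 that was higher in KO cells throughout and 2 that did not differ detectably. The share called higher was 33.3% on each day, against 24.6% of all tested genes at day 3 and 26.3% at day 5. Herc6 encodes the main ligase that attaches Isg15 to proteins in the mouse. Its level was 6.51, 10.9 and 8.31 CPM in control and 16.99, 25.4 and 29.1 CPM in KO libraries at day 3, and 12.3, 10.9, 10.4 and 8.65 CPM in control and 19.4, 24.9, 19.4 and 17.3 CPM in KO libraries at day 5. Every KO library exceeded every control library of its day, the KO mean was 2.78 and 1.91 times the control mean, and the changes were 1.43 ± 0.23 (adjusted p = 0.00016) and 0.93 ± 0.19 (adjusted p = 0.00085). Isg15 itself, the ubiquitin-like modifier, was at 8.22, 23.8 and 10.9 CPM in control and 7.81, 15.5 and 23.9 CPM in KO libraries at day 3. At day 5 it was at 10.7, 10.4, 14.01 and 2.47 CPM and 8.96, 12.4, 7.36 and 7.08 CPM. The groups overlapped on both days, and the changes were 0.08 ± 0.58 (adjusted p = 0.92) and -0.04 ± 0.50 (adjusted p = 0.95). Usp18, the protease that removes Isg15 and also restrains the interferon receptor, behaved alike, with changes of -0.39 ± 0.80 and -0.20 ± 0.67 and single-library values from 0.727 CPM in control day 5 replicate 4 to 13.4 CPM in control day 3 replicate 2.

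**Figure D4:**
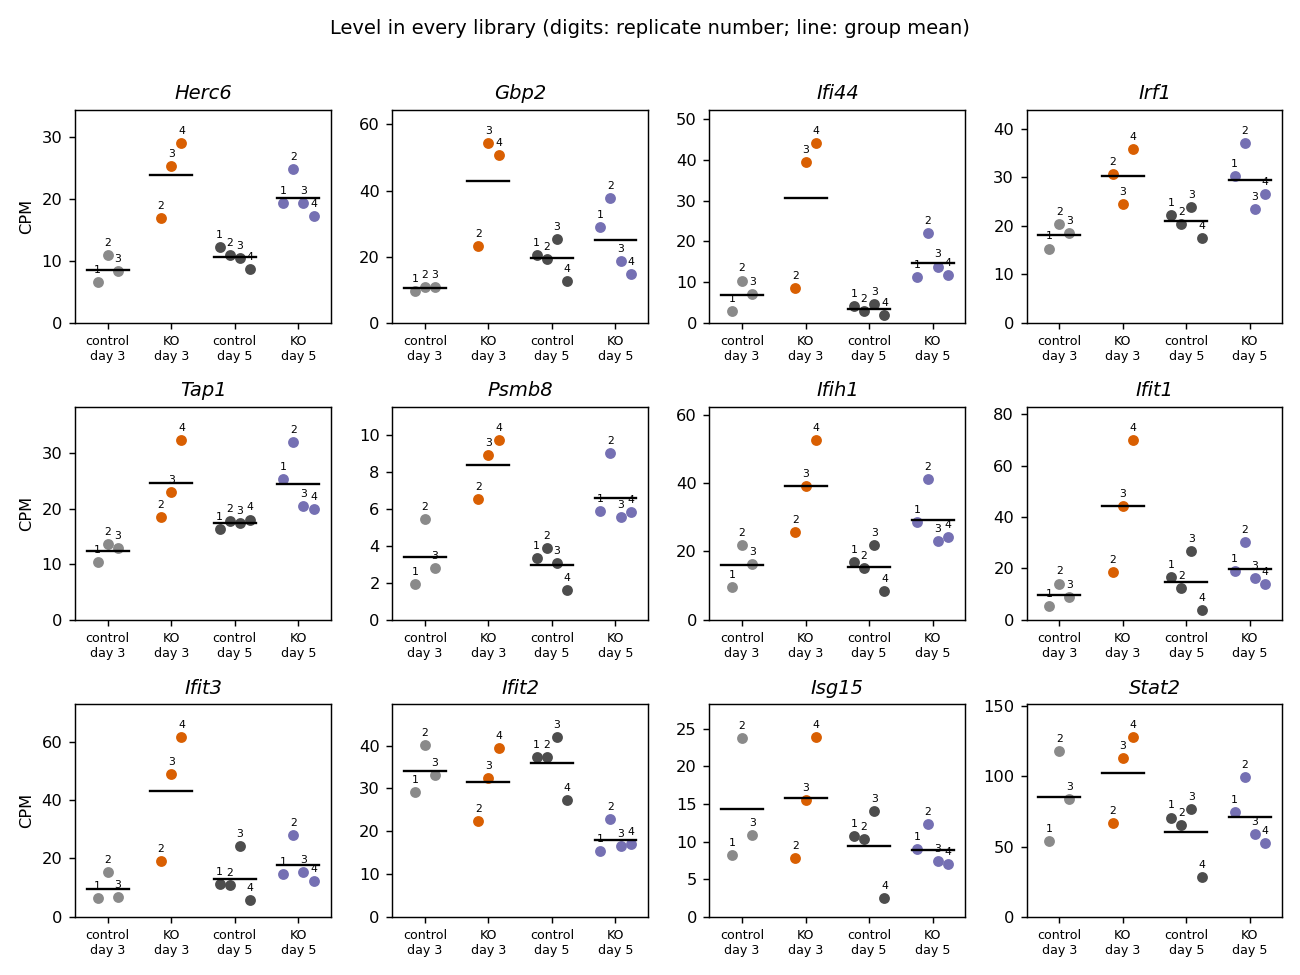
CPM of 12 genes in every library, by group along the horizontal axis, with a line at the group mean and the replicate number above each point; each vertical axis starts at 0. Herc6 is separated between genotypes on both days, Ifit1 and Ifit3 on day 3 only, Ifit2 in the opposite direction on day 5, and Isg15 and Stat2 show KO and control libraries over the same range.

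The IFIT genes, whose products bind RNA without the host cap structure, lie side by side on chromosome 19 (34550550 to 34650009, GRCm38.p6) and did not behave as a unit. Ifit1 was at 5.48, 14.1 and 8.77 CPM in control and 18.6, 44.1 and 70.2 CPM in KO libraries at day 3, with no overlap and a change of 2.18 ± 0.66 (adjusted p = 0.016). Ifit3 was at 6.51, 15.3 and 6.91 CPM and 18.9, 48.8 and 61.7 CPM, also without overlap (2.10 ± 0.58, adjusted p = 0.011). The KO means were 4.69 and 4.50 times the control means, and in both genes KO replicate 2 was far below the other two KO libraries. At day 5, Ifit1 was at 16.5, 12.3, 26.9 and 3.71 CPM in control and 18.99, 30.4, 16.1 and 13.7 CPM in KO libraries, and Ifit3 at 11.3, 10.9, 24.3 and 5.82 CPM and 14.8, 28.1, 15.3 and 12.1 CPM. Neither was called then (0.47 ± 0.54 and 0.49 ± 0.49, adjusted p = 0.48 and 0.42). Ifit2 went the other way. At day 3 its values of 29.2, 40.03 and 33.1 CPM in control and 22.4, 32.4 and 39.4 CPM in KO libraries overlapped (-0.15 ± 0.22, adjusted p = 0.59). At day 5 all 4 KO libraries, at 15.4, 22.7, 16.4 and 16.97 CPM, were below all 4 control libraries, at 37.3, 37.2, 42.04 and 27.4 CPM, and the KO mean was 0.497 of the control mean (-1.01 ± 0.18, adjusted p = 0.0005). Ifit2 was thereby the single gene of the 39 that was called lower in KO cells. Of the 3 IFIT genes, 66.7% were called higher at day 3 and 33.3% lower at day 5. Over all tested genes these shares were 24.6% and 26.2%. The counts of Ifit3 are uncertain to the extent that reads are shared with its near-identical neighbour Ifit3b, which was at 0.457, 2.34 and 0.933 CPM in control and 6.07, 13.2 and 20.6 CPM in KO libraries at day 3.

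In the fit of all libraries, edgeR called none of the 5 OAS genes at either day, nor did DESeq2, with 1 gene at an unadjusted p below 0.05 at day 3 and 0 at day 5. In that fit, 24.6% of all tested genes were called higher at day 3 and 26.3% at day 5. The OAS genes encode enzymes that make short oligoadenylates to activate RNase L, or related proteins without that activity. They were among the least abundant of the 39 per length: Oas3 averaged 0.166 and Oas2 0.185 CPM per kilobase of counted length. Oasl2 was the best measured, at 4.68, 15.1 and 6.44 CPM in control and 10.1, 27.7 and 36.4 CPM in KO libraries at day 3 and 8.69, 6.59, 11.6 and 1.16 CPM and 12.8, 23.4, 7.16 and 6.76 CPM at day 5. KO replicate 2 fell within the control range at day 3, and the change of 1.42 ± 0.75 was not called (adjusted p = 0.13). Oasl1, which in the mouse limits translation of Irf7, had all 3 KO libraries, at 1.50, 1.88 and 1.71 CPM, above the controls, at 0.571, 0.779 and 0.467 CPM, at day 3 and an adjusted p of 0.062. It was called higher at day 3 in 6 of 24 alternatives, among them sex as a covariate and the fit of only the groups compared. For Oas1a, Oas2 and Oas3 the levels were under 2 CPM in every library and no difference was called. Oas1a also has near-identical copies, so its counts are uncertain.

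Of the 5 dynamin-like and guanylate-binding GTPases, which restrict viruses and intracellular microbes, 3 were called higher in KO cells at day 3. The share of all tested genes called higher was 24.6% at day 3 and 26.3% at day 5. Gbp2 was at 9.59, 10.9 and 10.9 CPM in the 3 control libraries, a narrow range, and at 23.2, 54.5 and 50.6 CPM in the KO libraries at day 3. The KO mean was 4.08 times the control mean (1.96 ± 0.41, adjusted p = 0.0018). At day 5 the control libraries held 20.5, 19.4, 25.4 and 12.7 CPM and the KO libraries 29.1, 37.7, 18.7 and 14.8 CPM, which overlapped (0.38 ± 0.33, adjusted p = 0.35). Every control library of day 5 held more Gbp2 than every control library of day 3. Gbp3 was at 2.74, 5.61 and 2.99 CPM in control and 7.99, 19.3 and 27.6 CPM in KO libraries at day 3, with no overlap (2.20 ± 0.70, adjusted p = 0.021). Gbp7, its neighbour on chromosome 3, gave 1.26 ± 0.52 with KO replicate 2 inside the control range and was not called (adjusted p = 0.061), but was called in DESeq2. Mx1 had the largest fitted change of the 39 (3.88 ± 1.22, adjusted p = 0.017), but on 3 counts in the control group against 47 in the KO group, a ratio per total count of 9.94 with a 95% counting interval of 3.2 to 49.9 that covers counting error only. Mx1 and Mx2 are listed as transcribed pseudogenes in the RefSeq table used here, and Mx2 was not called on either day (1.14 ± 0.61 and 0.80 ± 0.50). At day 5 edgeR and DESeq2 called 0 of the 5 GTPase genes, and 0 had an unadjusted p below 0.05.

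Among the other antiviral effectors, 4 of 5 were higher in KO cells at day 3 and 0 of 5 at day 5 by edgeR and by DESeq2, with 0 at an unadjusted p below 0.05. By edgeR, 24.6% of all tested genes were called higher at day 3 and 26.3% at day 5. Ifitm3, which blocks the fusion of viruses with endosomal membranes, was the most abundant of the 39 at 221 CPM per kilobase. Its CPM was 79.1, 122 and 94.9 in control and 120.1, 181 and 264 in KO libraries at day 3, where KO replicate 2 lay within the control range (0.93 ± 0.29, adjusted p = 0.017). At day 5 its CPM was 170.4, 165, 174 and 106 in control and 136, 166, 118 and 106 in KO libraries, not called (-0.22 ± 0.24, adjusted p = 0.46). Eif2ak2, the kinase PKR that halts translation on double-stranded RNA, was at 35.6, 61.2 and 52.8 CPM in control and 59.7, 91.1 and 115 CPM in KO libraries at day 3 (0.81 ± 0.25, adjusted p = 0.016). Rsad2 (viperin), which makes a chain-terminating nucleotide, and Cmpk2, a mitochondrial nucleotide kinase, are neighbours on chromosome 12. Rsad2 was at 1.48, 3.43 and 1.59 CPM and 4.09, 8.45 and 12.4 CPM at day 3 (1.86 ± 0.72, adjusted p = 0.046). Cmpk2 was at 2.06, 2.57 and 2.15 CPM and 3.88, 7.51 and 9.26 CPM (1.53 ± 0.51, adjusted p = 0.024). In both, every KO library was above every control library. Bst2 (tetherin), which holds budding virus at the cell surface, was the exception, with 30.5, 90.8 and 50.96 CPM in control and 14.6, 28.2 and 37.2 CPM in KO libraries at day 3. Its change of -1.16 ± 0.48 was not called (adjusted p = 0.063), and it was called lower without KO day 3 replicate 4, without control day 3 replicate 1, without control day 5 replicate 4, or with the 2 cultures of the same control embryo summed.

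Parp14, Parp9 and Dtx3l form a cluster on chromosome 16 and act in ADP-ribosylation, Dtx3l as the ubiquitin ligase partner of Parp9. Parp14 was called higher at day 3, from 8.22, 14.9 and 9.43 CPM in control to 12.1, 34.8 and 47.3 CPM in KO libraries, where KO replicate 2 overlapped the controls (1.47 ± 0.53, adjusted p = 0.037). At day 5 its KO libraries (17.4, 24.5, 13.2 and 11.6 CPM) were all above its control libraries (11.4, 10.1, 11.1 and 3.49 CPM), yet it was not called (0.90 ± 0.45, adjusted p = 0.11). Parp9 and Dtx3l, which overlap in the genome, gave 0.50 ± 0.36 and 0.78 ± 0.37 at day 3 and 0.43 ± 0.31 and 0.48 ± 0.31 at day 5 without a call, and DESeq2 called Dtx3l higher at day 3. By edgeR, 33.3% of the 3 genes were called higher at day 3, against 24.6% of all tested genes.

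All 3 genes of antigen processing were called higher in KO cells on both days, although with sex as a covariate Tap1 and Psmb9 were not called at day 5. Over all tested genes, 24.6% were called higher at day 3 and 26.3% at day 5. Tap1, a chain of the peptide transporter into the endoplasmic reticulum, and the immunoproteasome subunits Psmb8 and Psmb9 sit together on chromosome 17 (34182030 to 34201454). The starts of Psmb9 and Tap1 are 226 bp apart on opposite strands, at 34187330 and 34187556. Tap1 was at 10.4, 13.6 and 12.9 CPM in control and 18.5, 23.01 and 32.4 CPM in KO libraries at day 3 (0.99 ± 0.21, adjusted p = 0.0017). It was at 16.4, 17.9, 17.4 and 18.04 CPM and 25.3, 31.97, 20.4 and 19.98 CPM at day 5 (0.48 ± 0.17, adjusted p = 0.03). Neither day showed overlap, and Tap1 was a gene in which control day 5 replicate 4 did not stand low. Psmb8 was at 1.94, 5.45 and 2.80 CPM in control and 6.57, 8.92 and 9.76 CPM in KO libraries at day 3 and at 3.35, 3.89, 3.10 and 1.60 CPM and 5.91, 9.02, 5.59 and 5.82 CPM at day 5, again with no overlap. Its KO means were 2.48 and 2.21 times the control means (1.24 ± 0.37 and 1.12 ± 0.31, adjusted p = 0.012 and 0.0069). Psmb9 was much lower, at 0.228, 0.0779 and 0.373 CPM against 0.897, 0.939 and 1.71 CPM at day 3 (2.39 ± 0.73, adjusted p = 0.014). At day 5, control replicate 1 reached the KO range (1.09, 0.156, 0.163 and 0.291 CPM against 1.05, 1.49, 1.12 and 0.814 CPM) and the call was marginal (1.27 ± 0.51, adjusted p = 0.048).

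Of the remaining induced genes, Ifi44 had the largest change at day 5. Ifi44 was at 3.99, 2.85, 4.56 and 1.82 CPM in control and 11.3, 22.1, 13.8 and 11.8 CPM in KO libraries, a KO mean 4.46 times the control mean with no overlap (2.20 ± 0.54, adjusted p = 0.0051). At day 3 it was at 2.97, 10.4 and 7 CPM and 8.49, 39.5 and 44.3 CPM, and KO replicate 2 fell inside the control range although the call was made (2.07 ± 0.60, adjusted p = 0.013). Ifi35 was at 11.2, 15.96 and 13.7 CPM in control and 17.5, 21.1 and 22.4 CPM in KO libraries at day 3, the smallest change among the called genes (0.55 ± 0.22, adjusted p = 0.048). Rtp4, a receptor-transporting protein, was called at day 3 (1.55 ± 0.59, adjusted p = 0.042) despite overlap, and at day 5 its KO libraries were all above control (6.09, 9.59, 5.89 and 5.64 CPM against 4.50, 3.32, 4.24 and 1.38 CPM) without a call (adjusted p = 0.1). Xaf1, a pro-apoptotic partner of XIAP, was not called (0.86 ± 0.57 and 0.58 ± 0.48). Rtp4 overlaps Masp1 in the annotation, so its counts may include reads that fit either gene.

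Whether the KO difference itself changed between the days was tested directly, and 0 of the 39 genes were called by edgeR, where 14.3% of all tested genes were. For 31 of the 39 the day 5 difference was the smaller or more negative, with a median of -0.50 on the log2 scale, and 3 genes had an unadjusted p below 0.05. That median rested on single libraries: it was -0.0367 without KO day 3 replicate 4, -0.223 without control day 3 replicate 1, -0.266 without control day 5 replicate 3 and -0.311 without control day 5 replicate 1. Ifit2 (-0.86 ± 0.28, adjusted p = 0.06), Ifitm3 (-1.15 ± 0.37, adjusted p = 0.06) and Gbp2 (-1.58 ± 0.52, adjusted p = 0.063) were closest to the threshold. DESeq2 called these 3 lower, and edgeR did so without KO day 3 replicate 2, without KO day 5 replicate 2 or without control day 5 replicate 4. Those fits called 9.46%, 5.84%, 5.99% and 9.93% of all tested genes lower, in that order. The edgeR fit of all libraries thus does not show that any of the 13 genes called at day 3 and not at day 5 differed between the days, whereas Gbp2 and Ifitm3 among them depend on the tool and on single libraries. Within KO cells, 1 of 39 genes was called between day 5 and day 3 (12% of all tested genes were): Ifit2 was lower at day 5 (-0.79 ± 0.20, adjusted p = 0.022). Within control cells, 1 of 39 was called (38.3% of all tested genes were): Bst2 was lower at day 5 (-1.24 ± 0.43, adjusted p = 0.039). With the embryo as a block, edgeR called 0 genes in either comparison, with 1 gene at an unadjusted p below 0.05 in each. Ordered by group mean, KO day 3 was the highest of the 4 groups for 31 of the 39 genes, and control day 3 the lowest for 18.

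Interferon transcripts themselves were close to absent. Of 21 interferon genes, 16 had no count in any of the 14 libraries, among them Ifnb1, Ifng, Ifnl2 and Ifnl3, which allows a level of up to 0.014 CPM over the libraries together. The other 5 (Ifna7, Ifnab, Ifne, Ifnk and Ifnz) held 37 counts in all, 27 of them in Ifnz, with 8 in control and 11 in KO libraries at day 3 and 2 and 16 at day 5. Their summed level was 0 to 0.129 CPM in control and 0.125 to 0.305 CPM in KO libraries at day 5, and 0 to 0.56 CPM and 0 to 0.264 CPM at day 3. No interferon gene passed the filter on low counts, so none was tested.

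Receptor and JAK-STAT genes went both ways. Of 11, all tested, 2 were called higher and 3 lower at day 3, and 1 higher and 4 lower at day 5. The shares called lower were 27.3% and 36.4%, against 26.2% of all tested genes on each day, and those called higher 18.2% and 9.09%, against 24.6% and 26.3%. Their median log2 fold changes were -0.00116 and -0.22. Ifngr2, a chain of the interferon gamma receptor, was lower in KO cells on both days (-0.42 ± 0.08 and -0.68 ± 0.07, adjusted p = 0.00064 and 2.6e-06). Il10rb, which is shared by the interferon lambda and interleukin 10 receptors, was lower as well (-0.66 ± 0.13 and -0.87 ± 0.10). Stat3 was higher at day 3 (0.48 ± 0.11) and lower at day 5 (-0.41 ± 0.09), and this difference between the days was called (-0.89 ± 0.14, adjusted p = 0.0013). Of 8 inhibitors of the pathway, 2 were called higher and 2 lower at day 3 and 2 higher and 3 lower at day 5. The share called higher, 25% on each day, was near that of all tested genes. Those called lower were 25% and 37.5%, against 26.2% of all tested genes on each day. Socs3, a feedback inhibitor of cytokine signalling, was at 15.2, 15.3 and 13.3 CPM in control and 41.99, 57.8 and 67.03 CPM in KO libraries at day 3 (1.91 ± 0.33, adjusted p = 0.00046) and remained called at day 5 (0.88 ± 0.27, adjusted p = 0.015).

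Among 19 genes that act in sensing or in the induction of interferon, 17 were tested. Of these, 1 was called higher and 4 lower at day 3, and 3 higher and 5 lower at day 5. The shares called lower, 23.5% and 29.4%, were near the 26.2% of all tested genes on each day, and the median log2 fold changes were -0.00146 and 0.0728. The shares called higher, 5.88% and 17.6%, were below the 24.6% and 26.3% of all tested genes. Sting1, the adaptor of cytosolic DNA sensing, was at 32.6, 42.3 and 32.8 CPM in control and 19.1, 13.2 and 18.6 CPM in KO libraries at day 3. It was at 40.8, 42.8, 36.7 and 21.96 CPM and 18.4, 19.3, 14.7 and 13.2 CPM at day 5, and KO libraries were below all controls on both days (-1.02 ± 0.24 and -1.12 ± 0.19, adjusted p = 0.0029 and 0.00036). Ticam1, the adaptor of Tlr3, was lower too (-1.26 ± 0.10 and -0.86 ± 0.08), whereas Tlr3, a receptor for double-stranded RNA in endosomes, was higher (1.38 ± 0.27 and 0.92 ± 0.22, adjusted p = 0.0008 and 0.0026). Of 9 genes that clear nucleic acid, edgeR called 3 higher on each day, 33.3% against 24.6% and 26.3% of all tested genes, and 0 lower, with 0 and 1 lower at an unadjusted p below 0.05. Samhd1, which degrades nucleotides, was at 52.3, 49.5 and 50.7 CPM in control and 109.8, 122 and 119 CPM in KO libraries at day 3 (1.20 ± 0.18, adjusted p = 0.00014) and did not pass at day 5 (0.01 ± 0.15), a difference between the days that was called (-1.19 ± 0.24, adjusted p = 0.0057).

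A further list of 60 interferon-stimulated genes outside the 39 had 52 tested genes, of which 24 were called higher and 1 lower at day 3 and 15 higher and 2 lower at day 5. The shares called higher were 46.2% against 24.6% of all tested genes at day 3 and 28.8% against 26.3% at day 5. Those called lower were 1.92% and 3.85%, against 26.2% of all tested genes on each day. The median log2 fold changes of the 52 genes were 0.72 and 0.44. Like the 39, this list was chosen with earlier results of these data known, so it is not an independent check on them. Ifitm1, a relative of Ifitm3, was at 1.26, 0.623 and 1.77 CPM in control and 22.2, 27.2 and 55.2 CPM in KO libraries at day 3 (4.88 ± 0.49, adjusted p = 7.4e-06). At day 5 it was at 5.92, 3.11, 4.07 and 6.91 CPM and 24.9, 25.9, 16.8 and 16.4 CPM (2.06 ± 0.34, adjusted p = 0.0003), without overlap on either day. Ifi47, an immunity-related GTPase, changed by 3.41 ± 0.51 and 1.01 ± 0.38. Parp11 changed by 0.59 ± 0.14 and 0.85 ± 0.12, and the chemokine gene Ccl5 by 2.19 ± 0.41 and 1.96 ± 0.31. In this list 6 genes, Ifit3b, Ifi47, Slfn9, Ifitm1, Ifitm2 and Ube2l6, had a KO difference called lower at day 5 than at day 3, where 7.15% of all tested genes did. Of 13 genes of MHC class I and peptide presentation, 12 were tested. On each day 4 were called higher (33.3%, against 24.6% and 26.3% of all tested genes) and 1 lower (8.33%, against 26.2%). H2-D1, a class I heavy chain, was at 75.05, 71.05, 67.8 and 75.8 CPM in control and 139, 136, 135 and 137 CPM in KO libraries at day 5 (0.72 ± 0.14 at day 3 and 0.92 ± 0.12 at day 5, adjusted p = 0.00086 and 3.2e-05). Erap1, the peptidase that trims peptides for class I, changed by 0.99 ± 0.12 and 0.84 ± 0.10, and Psme1, a proteasome activator subunit, by -0.35 ± 0.11 and -0.41 ± 0.09.

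In the genome, 20 of the 39 genes lie in 8 clusters with gaps under 100 kb. Neighbours shared their calls in some clusters and not in others. Psmb8, Psmb9 and Tap1 were called higher on both days, and Rsad2 and Cmpk2 at day 3. In the other clusters calls were mixed at day 3: Ifit1 and Ifit3 but not Ifit2, Gbp2 and Gbp3 but not Gbp7, Mx1 but not Mx2, and Parp14 but not Parp9 or Dtx3l. Neither Oasl1 and Oasl2 nor Oas2 and Oas3 were called.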

How the data were processed

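Polyadenylated RNA of 14 mouse embryonic fibroblast cultures was sequenced as stranded paired-end reads of 80 bp, per the labels' protocols. The submitters' processing notes name featureCounts and the genome build mm10. Its version and strand setting, the aligner and the annotation release are not given in these sources. The values the authors deposited are counts per gene, 1 library a file, without normalization. Lines without a gene identifier (909 of 27179 a file, 0.194% to 0.315% of counts) were left out. Identifiers were matched to symbols in a RefSeq table of GRCm38.p6, which matched 25275 of 26270. Replicates were compared first: within a group they differed beyond sampling noise (chi-square over degrees of freedom from 3.2 up to 76.8, and 15.3 between control replicates 1 and 2 of day 3, which share an embryo label), so each was counted. Those 2 libraries, and embryos sampled at both days, are not independent animals, so p-values describe the spread between cultures.

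Counts were tested in R 4.3.3 with edgeR 4.0.16, which uses limma 3.58.1. Low genes were removed with filterByExpr, library totals were scaled by TMM, and a robust quasi-likelihood model with 1 mean for each of the 4 groups was fitted to the 14 libraries. Benjamini-Hochberg adjustment was made within a contrast, over 14327 genes. All 39 members passed the filter. Fold changes carry the standard error of the fit. Xist, Tsix and Y-linked genes (112) were left out. CPM uses TMM-scaled totals, and deviations of libraries use log2(CPM + 0.5). A fold against 3 counts is given with a 95% counting interval, and an absence of counts allows 3 counts; both cover counting error only, since the libraries have no molecular identifiers. The fit was tested on simulated data. The embryo pairs the days by its label; with group means removed, the correlation within an embryo was -0.0166, -0.0229 and 0.204 for the KO pairs and 0.02, 0.0767 and -0.0228 for the control pairs. Alternatives included DESeq2 1.42.0, other scalings and filters, sex as a covariate, blocks by embryo or replicate number, a test against a 1.5-fold change and leaving out each library.

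Members and lists were chosen with earlier results of these data known. In each role class, the 2 genes with the highest mean CPM and up to 2 with the smallest adjusted p are described by library, and up to 4 genes of each other list are named. Other genes named were chosen after their values were seen. Kat5 and the interferon genes are always given, and 1 signalling gene is not reported here.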

Additional observations from a re-analysis of the deposited data

Results flagged for a closer look

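In groups of 4 libraries, a value was marked when its distance to the nearest other library divided by the whole range of the group, exceeded Dixon's 95% critical value. This was met by 9 of 78 combinations of a gene and a day 5 group, where chance alone marks about 1 in 20, and because the genes move together these are not independent. In control day 5 replicate 4, the only control of litter 219, 5 genes were far below the other controls. Ifitm3 was at 106.5 CPM there (165 to 174 CPM in the others), Irf7 at 2.91 CPM (9.45 to 10.6 CPM), Irf9 at 19.9 CPM (34.0 to 34.7 CPM), Mx2 at 0.727 CPM (1.76 to 1.96 CPM) and Parp14 at 3.49 CPM (10.1 to 11.4 CPM). In KO day 5 replicate 2, of litter 136, 3 genes were far above the other KO libraries. Oas3 was at 1.49 CPM there (0.254 to 0.385 CPM in the others), Psmb8 at 9.02 CPM (5.59 to 5.91 CPM) and Rtp4 at 9.59 CPM (5.64 to 6.09 CPM). Psmb9 was at 1.09 CPM in control day 5 replicate 1, against 0.156 to 0.291 CPM in the other controls. The call of Psmb8 at day 5 held without KO day 5 replicate 2, whereas that of Psmb9 at day 5 was lost when any of 9 of the 14 libraries was left out.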

How the results depend on the processing

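None of the 24 alternatives for KO against control turned the direction of a called gene. In every alternative that gave a value, Gbp2 and Herc6 stayed called at day 3 and Ifi44 and Ifit2 at day 5. The test against a 1.5-fold change left 3 genes higher at day 3 (Gbp2, Herc6 and Ifit3), 1 higher at day 5 (Ifi44) and 0 lower in the comparison of days in KO or in control cells. That test called 9.58% of all tested genes higher at day 3 and 7.38% at day 5, so the 39 genes were not above that share. DESeq2 called 3 genes with a smaller KO effect at day 5 (Gbp2, Ifit2 and Ifitm3) and 2 higher at day 5 in control cells (Gbp2 and Ifitm3). The shares of all tested genes were 9.46% and 17.9%. Fitting only the groups compared gave 3 higher (Gbp2, Ifitm3 and Tap1) and 0 lower between days in control cells, where 17.3% of all tested genes were called in each direction. Without a filter on low counts, and with sex as a covariate, 0 were lower between days in control cells, and the call of Bst2 was lost. With control day 3 replicates 1 and 2 summed, 1 gene (Bst2) was lower in KO cells at day 3 and 15 were higher. Of all tested genes, 24.1% were called lower and 21.7% higher in that fit.

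Genes that were not called changed sign in some alternatives. With library totals alone, the day 5 difference was 0.02 for Isg15 and 0.05 for Oas3 on the log2 scale. With sex as a covariate it was 0.03 for Irf9, 0.21 for Isg15, 0.27 for Usp18 and 0.36 for Oas3, and at day 3 it was 0.21 for Usp18.

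Replicate numbers do not pair KO with control embryos. Same-numbered libraries correlated at -0.0507 and -0.021 at day 3 and at 0.23, 0.155, -0.166 and 0.428 at day 5. A replicate block by number gave 10 genes higher at day 3, where it called 23.2% of all tested genes higher, and a day 3 difference of 0.02 for Usp18. Embryos pair the days, and with a replicate block by embryo 0 genes were lower between days in KO cells and 0 in control cells. In these comparisons of days, the only ones fitted with the embryo block, it changed no other call among the 39 genes.

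Leaving out 1 library at a time gave 5 (without KO day 3 replicate 4) to 25 (without KO day 3 replicate 2) genes higher at day 3. The count was 10 without control day 3 replicate 1 and 13 without control day 3 replicate 3. It gave 0 to 1 (Bst2) lower at day 3. At day 5 it gave 4 (without KO day 5 replicate 1, KO day 5 replicate 2 or control day 5 replicate 2) to 9 (without KO day 3 replicate 2) higher. For the difference of the KO effects 0 to 3 were lower, between days in KO cells 0 to 2 were lower, and in control cells 0 to 3 were higher and 0 to 2 lower. Over all tested genes, these fits called 20.5% to 27.4% higher and 22% to 28.5% lower at day 3. At day 5 they called 22.3% to 30.3% higher. They called 4.23% to 9.93% lower for the difference of the KO effects and 4.97% to 9.9% lower between days in KO cells. In control cells they called 13.9% to 18.8% higher and 15.8% to 21.1% lower between days. Among genes not called, the day 3 log2 difference ranged from -0.42 to 0.58 for Dhx58, -0.40 to 0.10 for Ifit2, -0.43 to 0.05 for Irf9, -0.51 to 0.68 for Isg15, -1.35 to 1.00 for Oas1a, -2.55 to 0.44 for Oas2, -0.25 to 1.99 for Oas3 and -1.09 to 0.25 for Usp18. At day 5 it ranged from -0.24 to 0.04 for Irf9, -0.36 to 0.17 for Isg15, -0.05 to 0.69 for Oas1a, -0.75 to 0.24 for Oas2, -0.78 to 0.32 for Oas3 and -0.58 to 0.22 for Usp18. The cause of these changes was not tested. The widest of these ranges, 2.99, 2.35 and 2.24, were those of Oas2, Oas1a and Oas3 at day 3. Each had at most 25 counts in a library.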
